A study of Cricetulus griseus with 16 samples.

Results

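The c-Jun N-terminal kinase (JNK) pathway genes described here are 10 kinases and scaffolds: the TAO kinases Taok1, Taok2 and Taok3, the JIP scaffolds Mapk8ip1, Mapk8ip2 and Mapk8ip3, the MAP2 kinases Map2k4 and Map2k7, and the JNK genes Mapk8 and Mapk9. They were looked up by gene name, with case ignored, among the 20824 genes of the count table. Names for 9 of the 10 were found, and Map2k7 was absent by name. The set was chosen by the measured fall of Taok2 and Mapk8ip3 at 42.5 °C. For this reason every value that uses the 42.5 °C libraries is given for the members as a description without a test, and tests are given for the members only between groups at 40 °C and 37 °C.

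JNKs are stress-activated protein kinases at the end of a relay of phosphorylation. A MAP3 kinase activates the MAP2 kinases MKK4 (Map2k4) and MKK7 (Map2k7), which activate JNK1 (Mapk8) and JNK2 (Mapk9), and JNK phosphorylates c-Jun and other proteins. TAO kinases act upstream of the MAP2 kinases in stress signaling, and JIP scaffolds hold kinases of the relay together and link them to motor proteins. Heat is a classical activator of JNK, but activation is a phosphorylation event that RNA levels do not measure.

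RNA was sequenced from CHO cells (ATCC CCL-61), an established line from Chinese hamster ovary, in 16 libraries. Cultures kept at 37 °C without heat treatment served as controls. Mild heat was 40 °C, given for 1 h (written 40 °C/1 h) or for 6 h (40 °C/6 h), and the stronger heat was 42.5 °C, given for 1 h only. Each of the 4 groups had 4 libraries, named A to D. All groups were cultures of the same line, and nothing apart from temperature and time is given as differing between them. The study calls them biological repeats without saying on which days they were grown, so p values measure the spread between these cultures.

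Total counts were between 10504192 and 14668365 per library, and 3 counts, taken as the floor of detection, corresponded to 0.205 to 0.286 CPM, the read count scaled to the library total. The floor covers counting error only. The control library 37 °C replicate D stood apart, since its log2 CPM correlated with those of replicates A, B and C across 10565 genes with Pearson's r between 0.974 and 0.9763, against 0.9954 to 0.9961 among those 3. The study left 1 control out, and the main fits leave out replicate D. Values with all 4 controls are also given for the members that differed and for the other pathway genes called. The mesenchymal markers Vim, Fn1, S100a4 and Sparc were counted in every library and Thy1 was at 0, and of the 5 ovarian markers Foxl2, Fshr and Cyp19a1 were at 0 in all 16 libraries while Amh had 24 to 90 and Star 45 to 134 counts. The epithelial marker Cdh1 had 20 to 48 counts, and Epcam and the immune markers Ptprc and Cd3e had at most 1. The epithelial markers Krt8 and Krt18 and the immune marker Cd68 were also listed but were absent by name.

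The members were first followed by level in each library. In 37 °C replicate D all 8 of the 8 members with measurable RNA lay below replicates A, B and C. The gap was widest for Mapk8, at 41.1% below the mean of the other 3, and Mapk8ip3, at 40.2%. It was narrowest for Mapk9, at 4.44%, and Mapk8ip1, at 10.0%. Log2 fold changes against 37 °C are therefore shifted upward when replicate D is counted as a control.

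**Figure D1:**
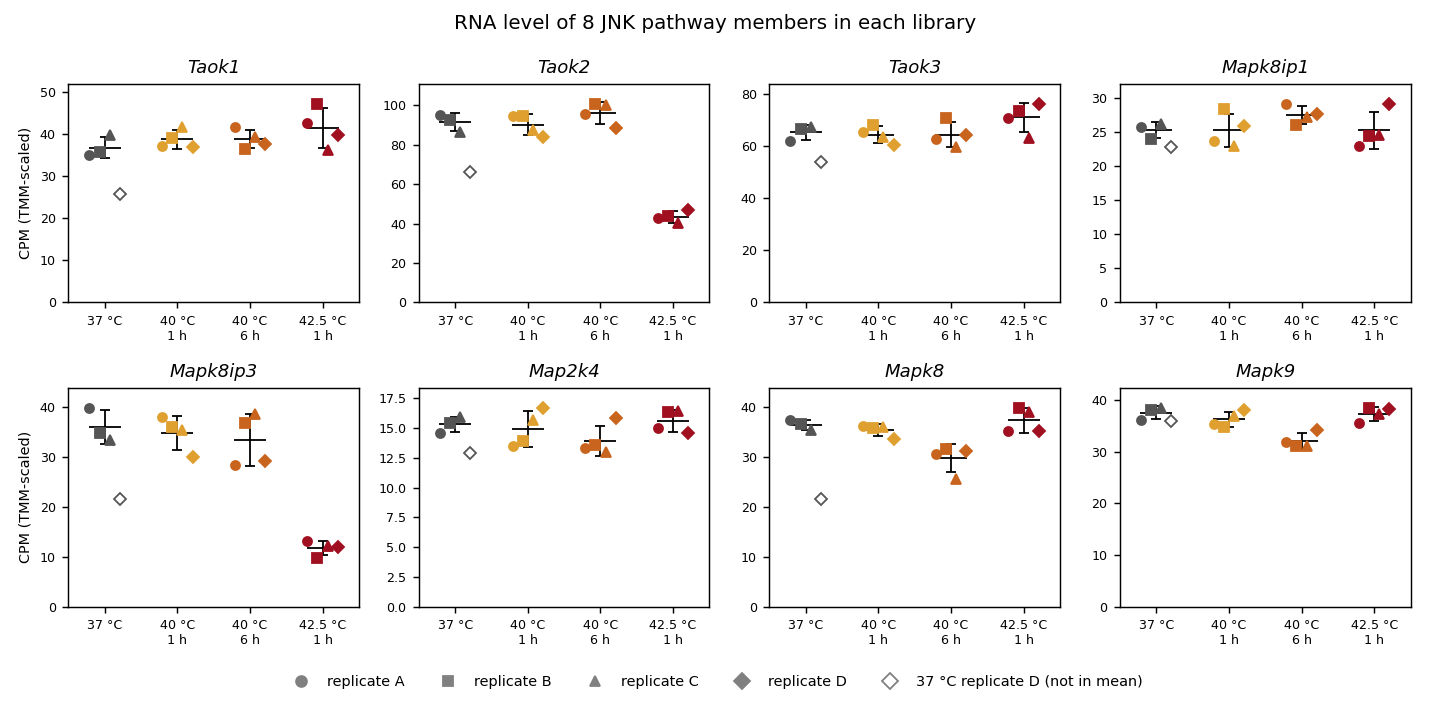
RNA level (CPM scaled by TMM, linear axis from 0) of 8 members in each of 16 libraries, by group. Filled symbols are libraries by replicate letter, the open diamond is 37 °C replicate D, and bars are the mean ± SD of the filled symbols (n = 3 at 37 °C, n = 4 elsewhere). Taok2 and Mapk8ip3 are low in all 4 libraries at 42.5 °C, Mapk8 and Mapk9 sit lower at 40 °C/6 h, and in the other 4 members the highest group mean is at most 1.13 times the lowest.

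TAO kinases are Ste20-like kinases that signal to MAP2 kinases. Taok2 (ENSCGRG00001019830) was at 95.4, 92.7 and 86.8 CPM in 37 °C replicates A, B and C and at 66.4 CPM in replicate D. At 42.5 °C/1 h its replicates A to D had 42.9, 43.7, 40.1 and 47.2 CPM. All 4 heated libraries lay below every control library, replicate D included.

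At 40 °C/1 h Taok2 was at 94.8, 94.6, 87.5 and 84.2 CPM in replicates A to D. At 40 °C/6 h it was at 95.7, 101, 100 and 88.5 CPM. Both groups overlapped the 37 °C libraries and none of their libraries reached down to the level at 42.5 °C. In order of group means, Taok2 was at 96.3 ± 5.69 CPM in the 40 °C/6 h group (SD, n = 4), 91.6 ± 4.40 in the 37 °C group (SD, n = 3), 90.3 ± 5.28 in the 40 °C/1 h group (SD, n = 4) and 43.5 ± 2.92 in the 42.5 °C group (SD, n = 4). The first 3 of these means did not differ beyond the spread of their libraries. At 42.5 °C the fitted level was 2.09-fold lower than at 37 °C, with a log2 fold change (log2FC) of -1.06 (SE 0.06), or -0.95 with all 4 control libraries. These counts come from whole cultures, so less RNA in every cell and loss of RNA from some of the cells cannot be told apart.

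Its paralogs Taok1 and Taok3 were not lower in any heated group by more than the spread between libraries. Taok1 (ENSCGRG00001010192) had between 35.0 and 39.7 CPM in the 3 controls, between 36.6 and 41.7 CPM over both groups at 40 °C, and between 36.2 and 47.3 CPM at 42.5 °C. Taok3 (ENSCGRG00001023031) had between 62.2 and 67.5 CPM in the controls, between 59.6 and 71.0 CPM at 40 °C, and between 63.3 and 76.5 CPM at 42.5 °C. Against 37 °C, the log2FC at 42.5 °C was 0.19 (SE 0.08) for Taok1 and 0.14 (SE 0.06) for Taok3, both above 0 where that of Taok2 was below.

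JIP scaffolds bind JNK together with its upstream kinases, and JIP3 (Mapk8ip3) also links cargo to kinesin. Mapk8ip3 (ENSCGRG00001009625) was at 39.8, 34.8 and 33.3 CPM in 37 °C replicates A, B and C and at 21.5 CPM in replicate D. At 42.5 °C its replicates A to D had 13.1, 9.64, 12.1 and 12.0 CPM, from 99 to 153 counts. All 4 lay below every control library.

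At 40 °C/1 h Mapk8ip3 was at 37.9, 36.0, 35.3 and 29.9 CPM in replicates A to D, and at 40 °C/6 h at 28.4, 36.8, 38.6 and 29.2 CPM. The libraries at 40 °C overlapped replicates A, B and C, and the highest library at 42.5 °C lay below all of them. The group means were 36.0 ± 3.40 CPM in the 37 °C group (SD, n = 3), 34.8 ± 3.43 in the 40 °C/1 h group (SD, n = 4), 33.2 ± 5.20 in the 40 °C/6 h group (SD, n = 4) and 11.7 ± 1.47 in the 42.5 °C group (SD, n = 4), and the first 3 of them did not differ beyond their spread. The fitted level at 42.5 °C was 3.04-fold lower than at 37 °C, a log2FC of -1.60 (SE 0.10), or -1.44 with all 4 control libraries. Among the members this was the widest difference, and Mapk8ip3 also had the widest spread between replicates, with an SD of 0.18 on the log2 CPM scale against 0.06 to 0.12 in the other 7.

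Mapk8ip1 (ENSCGRG00001016399), which encodes JIP1, was at 25.3 ± 1.17 CPM in the 37 °C group (SD, n = 3), 25.2 ± 2.44 in the 40 °C/1 h group (SD, n = 4), 27.6 ± 1.29 in the 40 °C/6 h group (SD, n = 4) and 25.3 ± 2.71 in the 42.5 °C group (SD, n = 4). Its log2FC at 42.5 °C was 0.02 (SE 0.09). Mapk8ip1 overlaps Cry2 in RefSeq (CriGri-PICRH-1.0), whose build differs from that of the mapping. Cry2 had a log2FC of -0.80 at 42.5 °C (adjusted p = 3.94e-06 by edgeR), and because the strand setting of the counting is not given in the sources used here, reads of the overlap cannot be assigned to one of the genes. In the same annotation Taok1 overlaps LOC103161070, Map2k4 overlaps Mir744 and Thap5, and Mapk8 overlaps Znf804b. None of these was found by name in the counts, and reads of these overlaps cannot be assigned either. Mapk8ip2 (ENSCGRG00001023653), which encodes JIP2, had between 0 and 2 counts in each of the 16 libraries, at or under the floor, and no fold change is given.

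The relation of the paralogs was also read within each library from raw counts, which needs no scaling between libraries. Gene lengths were not divided out, so only changes of a ratio between libraries can be read. The ratio of Taok2 to Taok3 counts was between 1.29 and 1.54 in the 3 controls, between 1.37 and 1.68 over both groups at 40 °C, and between 0.592 and 0.633 at 42.5 °C. The groups at 42.5 °C and 37 °C did not overlap, and replicate D of the controls, at 1.23, lay nearer to the other controls than to the heated libraries. The ratio of Taok3 to Taok1, by contrast, was between 1.70 and 1.87 in the 3 controls, 2.10 in replicate D, and between 1.56 and 1.92 at 42.5 °C. The ratio of Mapk8ip3 to Mapk8ip1 was between 1.27 and 1.55 in the controls, 0.945 in replicate D, and between 0.393 and 0.574 at 42.5 °C. The ratio of Taok2 to Mapk8ip3 was between 2.40 and 2.67 in the 3 controls, 3.09 in replicate D, between 2.48 and 3.37 over both groups at 40 °C and between 3.27 and 4.54 at 42.5 °C, so that 1 library at 40 °C/6 h, replicate A, lay within the range at 42.5 °C.

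**Figure D2:**
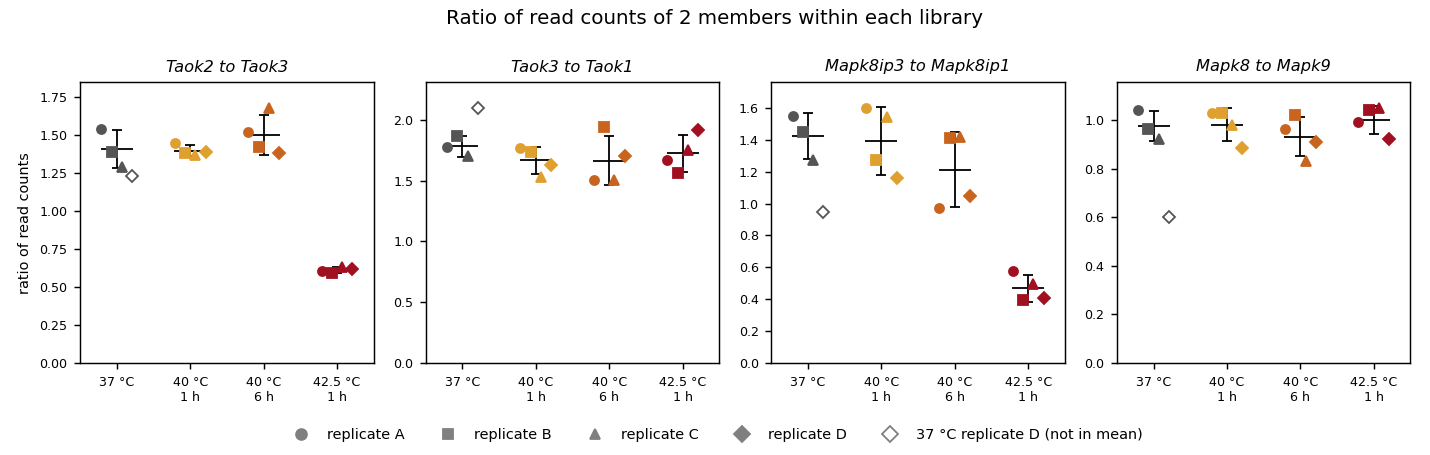
Ratio of raw read counts of 2 members within each library (linear axis from 0), by group. Symbols are libraries by replicate letter, the open diamond is 37 °C replicate D, and bars are the mean ± SD of the filled symbols. The ratios of Taok2 to Taok3 and of Mapk8ip3 to Mapk8ip1 are lowest in the 4 libraries at 42.5 °C (highest values 0.633 and 0.574), whereas the ratios of Taok3 to Taok1 and Mapk8 to Mapk9 overlap between 42.5 °C and the controls.

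The MAP2 kinase and JNK genes differed little at 42.5 °C. Map2k4 (ENSCGRG00001024521), whose product MKK4 activates JNK and p38, was at 15.3 ± 0.656 CPM in the 37 °C group (SD, n = 3) and 15.6 ± 0.911 in the 42.5 °C group (SD, n = 4), a log2FC of 0.04 (SE 0.09). Mapk8 had a log2FC of 0.04 (SE 0.07) and Mapk9 of 0.01 (SE 0.06). With all 4 control libraries the value of Mapk8 was 0.21, and that of Taok1 0.31.

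Against 37 °C, 2 of the 8 members that passed the filter on low counts differed by 1.5-fold or more at 42.5 °C, Taok2 and Mapk8ip3, both lower. These are the genes the set was chosen from, so no test is given for them and nothing is read from their count. For genes and comparisons that were tested, a call needed an adjusted p under 0.05 together with a difference of 1.5-fold or more, the thresholds the study used. At 42.5 °C against 37 °C such calls took 7.51% of all 10470 genes tested, and 4.68% in the lower direction. Against 40 °C/1 h, at the same length of treatment, the log2FC at 42.5 °C was -1.04 (SE 0.06) for Taok2 and -1.55 (SE 0.10) for Mapk8ip3, and between 0.02 and 0.15 for the other 6. In that comparison, which shares the 42.5 °C libraries with the one that chose the set, 5.27% of all genes were called and 3.51% were lower.

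At 40 °C the question was whether the members moved with mild heat. After 1 h at 40 °C, 0 of 8 members were called, with 0 at adjusted p under 0.05 alone, 0 at an unadjusted p under 0.05 and 0 by the Wald test of DESeq2. Of all genes, 0.334% were called with the fold threshold and 1.64% at adjusted p alone. Of the 10494 genes tested, 1556 had an unadjusted p under 0.05, and DESeq2 called 33 with the fold threshold. The log2FC values of the members lay between -0.05 (Mapk8ip3 and Mapk9) and 0.08 (Taok1), with adjusted p between 0.642 and 0.997 by the quasi-likelihood test of edgeR. For Taok2 the 95% interval of the fold was 0.911 to 1.07, and for Mapk8ip3 it was 0.856 to 1.09. The intervals of all 8 members lay inside a fold change of 1.5 in either direction.

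After 6 h at 40 °C the JNK genes themselves were lower. Mapk8 (ENSCGRG00001015025), which encodes JNK1, was at 37.4, 36.7 and 35.4 CPM in 37 °C replicates A, B and C and at 21.5 CPM in replicate D. At 40 °C/6 h its replicates A to D had 30.7, 31.7, 25.7 and 31.2 CPM. All 4 libraries at 6 h lay below controls A, B and C and above replicate D.

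Mapk9 (ENSCGRG00001007000), which encodes JNK2, was at 36.1, 38.1 and 38.5 CPM in 37 °C replicates A, B and C and at 35.9 CPM in replicate D. At 40 °C/6 h its replicates A to D had 31.8, 31.0, 31.0 and 34.2 CPM. All 4 libraries at 6 h lay below all 4 controls. How many of all genes separate from the controls in this way was not counted.

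Against 37 °C, Mapk8 fell by 0.29 in log2FC (SE 0.08, adjusted p = 0.00793 by edgeR), which is 18.3% lower with a 95% interval of the fold from 0.731 to 0.913. Mapk9 fell by 0.23 (SE 0.07, adjusted p = 0.0154), which is 14.6% lower with an interval of 0.776 to 0.941. Both differences were under a fold change of 1.5, so 0 of 8 members were called with the fold threshold, where 3.11% of all genes were. The Wald test of DESeq2 called 0 with that threshold and 2 at adjusted p alone, beside 267 and 2570 of all 10499 genes. By edgeR at adjusted p alone, 2 of 8 members were lower and 0 higher. Of all genes, 1551 (14.8%) were lower and 1540 higher by that rule, so nothing is read from the count of members. With all 4 control libraries neither gene passed the test, with a log2FC of -0.14 (adjusted p = 0.623) for Mapk8 and -0.21 (adjusted p = 0.0777) for Mapk9. Mapk9 also missed it without 37 °C replicate B (adjusted p = 0.0708) and without replicate C (adjusted p = 0.0597).

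The other 6 members did not pass the test at 40 °C/6 h, with adjusted p between 0.214 and 0.837. Their log2FC values ran from -0.13 for Map2k4, at 13.9 ± 1.27 CPM (SD, n = 4), to 0.12 for Mapk8ip1. For Taok2 the 95% interval of the fold was 0.967 to 1.14. For Mapk8ip3, whose libraries at 6 h were the most scattered, it was 0.799 to 1.07.

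The times at 40 °C were then compared directly. At 40 °C/1 h, Mapk8 was at 36.3, 35.9, 36.1 and 33.7 CPM in replicates A to D. Mapk9 was at 36.2 ± 1.48 CPM (SD, n = 4), with 34.7 CPM as the lowest. For both genes all 4 libraries at 6 h lay below all 4 at 1 h. The share of all genes that separate in this way was not counted, so nothing is read from it. From 1 h to 6 h Mapk8 fell by 0.25 in log2FC (SE 0.07, adjusted p = 0.0234 by edgeR). Mapk9 differed by -0.17 (SE 0.06, adjusted p = 0.0602) and did not pass the test, with a 95% interval of the fold from 0.809 to 0.971. Of the 8 members 1 was lower and 0 higher at adjusted p alone, beside 944 lower (9.04%) and 987 higher of all 10439 genes. With the fold threshold 0 members were called, beside 1.28% of all genes. By the Wald test of DESeq2 these counts were 1 and 0, beside 1767 and 120 of all genes. By edgeR 2 members had an unadjusted p under 0.05, beside 3370 of all genes. Mapk8 missed the threshold of adjusted p without replicate A, B or C of 40 °C/1 h (adjusted p = 0.0601, 0.0555 and 0.0593) and without replicate C of 40 °C/6 h (adjusted p = 0.0823), the library in which it was lowest.

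Mapk8 and Mapk9 were lower side by side. The ratio of their counts was between 0.921 and 1.04 in the 3 controls, between 0.830 and 1.02 at 40 °C/6 h and between 0.922 and 1.05 at 42.5 °C, and these ranges overlapped. In 37 °C replicate D the ratio was 0.599, below every other library.

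**Figure D3:**
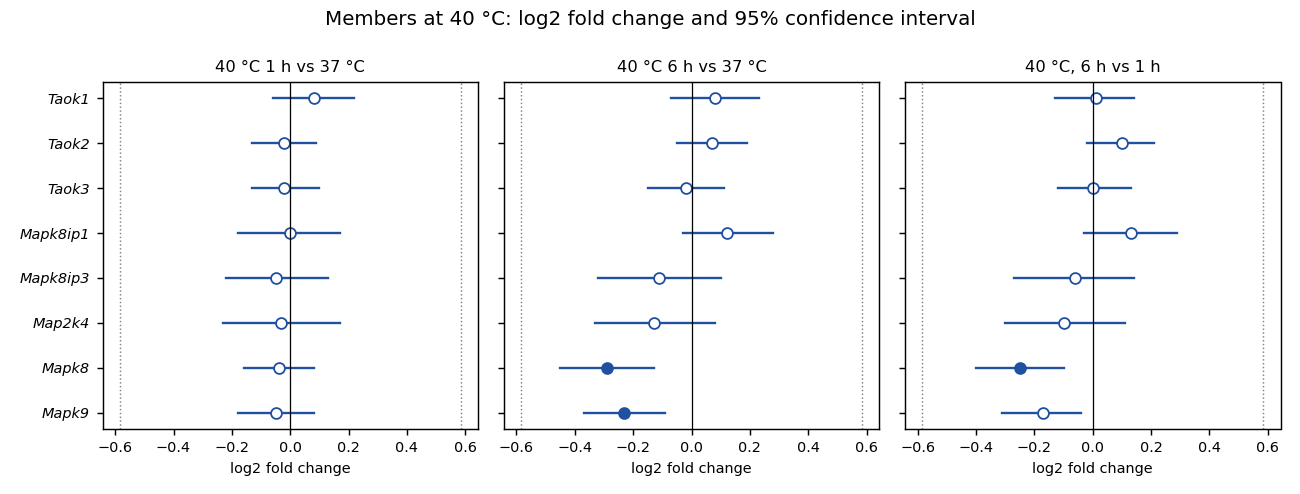
Log2 fold change (point) and 95% confidence interval (line) of 8 members in the 3 comparisons among 37 °C and 40 °C, from the edgeR fits. Filled points have an adjusted p under 0.05, dotted lines mark a fold change of 1.5 either way, and only Mapk8 (both comparisons with 6 h) and Mapk9 (6 h against 37 °C) are filled.

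Genes whose pattern over the 15 libraries was most like that of Taok2 or Mapk8ip3 were taken by Pearson's r of log2 CPM among 10470 genes. For Taok2 they were Top1mt (r = 0.988), Pprc1 (r = 0.987) and ENSCGRG00001024056 (r = 0.986), which had log2FC values of -0.59, -0.97 and -1.36 at 42.5 °C against 37 °C. For Mapk8ip3 they were Nsmf (r = 0.989), BC030867 (r = 0.982) and Akap1 (r = 0.980), with -0.69, -0.78 and -0.39. Taok2 and Mapk8ip3 correlated with each other at r = 0.973, and 29 genes were closer to Taok2. Over the 11 libraries outside 42.5 °C these values of r were 0.65, 0.33 and 0.54 for the first set and 0.81, 0.65 and 0.54 for the second, and 0.54 between Taok2 and Mapk8ip3. All points share their libraries, and the 4 libraries at 42.5 °C lie apart from the others in these genes.

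The genes next to Taok2 and Mapk8ip3 were looked up in the same RefSeq annotation, which held all 10 names, for their order only. Taok2 lies between Tmem219, with a log2FC of 0.06 at 42.5 °C (adjusted p = 0.489 by edgeR), and Hirip3, with -0.30 (adjusted p = 5.27e-05). Mapk8ip3 lies between Nme3, with 0.06 (adjusted p = 0.658), and Jpt2, with -0.02 (adjusted p = 0.775). None of these 4 neighbours differed by a fold change of 1.5.

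The rest of the JNK pathway was followed through a list of 66 other names, from upstream kinases to substrates, of which 63 were found in the counts and 50 passed the filter on low counts. Map4k5, Tab1 and Cdc42 were absent by name. At 42.5 °C, 10 of the 50 were called, 6 higher and 4 lower, beside 7.51% of all genes. Their median log2FC was 0.00 in the list and 0.00 over all genes tested. After 6 h at 40 °C 1 of 50 was called, lower, and after 1 h at 40 °C 3 of 50 were called, all higher, with medians of 0.00 and 0.01, beside 3.11% and 0.334% of all genes. The list was drawn up with earlier results of these data known, so its counts are descriptions.

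Of 16 tested MAP3 and MAP4 kinases, 3 were called at 42.5 °C, all lower, beside 4.68% of all genes called lower. At adjusted p under 0.05 alone by edgeR, 2 of 11 MAP3 kinases were higher and 3 lower. By the same rule 1 of 5 MAP4 kinases was higher and 2 lower, beside 2180 higher and 2330 lower of all 10470 genes. The log2FC ran from -0.82 to 0.34 in the MAP3 kinases and from -1.05 to 0.17 in the MAP4 kinases. Map4k2, a germinal center kinase upstream of JNK, was between 8.30 and 9.30 CPM in the 3 controls and between 3.41 and 4.72 CPM at 42.5 °C, a log2FC of -1.05 (SE 0.13, adjusted p = 1.49e-05 by edgeR). Map3k11, the mixed-lineage kinase MLK3, was between 52.3 and 54.7 CPM in those controls and between 27.9 and 34.8 CPM at 42.5 °C, a log2FC of -0.82 (SE 0.07, adjusted p = 5.01e-07). Mink1, another kinase of the MAP4K family, had -0.60 (SE 0.07, adjusted p = 6.1e-06), and its call was lost with all 4 control libraries, where it had -0.53, and without 37 °C replicate A, 42.5 °C replicate B or 42.5 °C replicate D. In these 3 genes all 4 heated libraries lay below replicates A, B and C. Replicate D had 8.51 CPM of Map4k2, 39.0 of Map3k11 and 36.7 of Mink1, also above the heated libraries.

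Among adaptors, Traf6, a ubiquitin ligase that couples receptors to MAP3 kinases, rose by 1.04 in log2FC (SE 0.13, adjusted p = 1.77e-05 by edgeR) at 42.5 °C. Gadd45b, which binds MAP3 and MAP2 kinases, fell by 1.05 in log2FC (SE 0.11, adjusted p = 2.92e-06). Of the 5 other scaffolds 0 were called by edgeR and 0 by DESeq2, and 4 had an unadjusted p under 0.05. Of all 10470 genes tested, 786 were called by edgeR and 712 by DESeq2, and 5305 had an unadjusted p under 0.05. Spag9, which encodes JIP4, the closest relative of JIP3, was at 209 ± 3.61 CPM in the 37 °C group (SD, n = 3) and 243 ± 6.85 in the 42.5 °C group (SD, n = 4), a log2FC of 0.23 (SE 0.04, adjusted p = 0.000197). The ratio of Mapk8ip3 to Spag9 counts was between 0.163 and 0.188 in the 3 controls, 0.141 in replicate D, and between 0.0391 and 0.0523 at 42.5 °C.

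Of 6 tested phosphatases that act on JNK, 3 were called at 42.5 °C, all higher, beside 296 of all 10470 genes called higher. The log2FC of the 6 ran from -0.33 to 2.29. Dusp1 was at 48.3, 45.4, 40.4 and 44.7 CPM in controls A to D and at 167, 241, 182 and 276 CPM in the libraries at 42.5 °C, a log2FC of 2.29 (SE 0.14, adjusted p = 1.49e-08 by edgeR). Dusp8 rose by 1.18 (SE 0.20, adjusted p = 0.000224) and Dusp16 by 0.93 (SE 0.10, adjusted p = 3.62e-06). After 1 h at 40 °C Dusp1 rose by 0.60 (SE 0.12, adjusted p = 0.02) and Dusp8 by 0.65 (SE 0.10, adjusted p = 0.0035). Neither was called there with all 4 control libraries, with adjusted p of 0.241 and 0.114. Dusp1 was also not called there by the Wald test of DESeq2 or without 37 °C replicate B, 37 °C replicate C, 40 °C/1 h replicate A or 40 °C/1 h replicate C. From 1 h to 6 h at 40 °C Dusp1 fell by 0.82 (SE 0.11, adjusted p = 0.00019).

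Jun, the substrate that names the kinase, was at 67.1, 75.8, 70.4 and 68.9 CPM in controls A to D and at 157, 174, 136 and 164 CPM at 42.5 °C, a log2FC of 1.16 (SE 0.07, adjusted p = 1.29e-08 by edgeR). At 40 °C/1 h it was at 189, 106, 177 and 112 CPM, with a log2FC of 1.04 (SE 0.16, adjusted p = 0.00414, and 0.114 with all 4 control libraries). At 40 °C/6 h it was at 67.5, 63.6, 63.1 and 64.9 CPM, back within the range of the controls or below it, and from 1 h to 6 h it fell by 1.17 in log2FC (SE 0.14, adjusted p = 8.85e-05). Bcl2l11, the proapoptotic BIM, rose by 0.62 at 42.5 °C (SE 0.11, adjusted p = 0.000351), and was not called without 42.5 °C replicate C.

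With all 4 control libraries, 9 of the 10 genes called at 42.5 °C were called again, all but Mink1. Their log2FC values were then -1.03 for Map4k2, -0.71 for Map3k11, -1.12 for Gadd45b, 1.11 for Traf6, 2.30 for Dusp1, 1.29 for Dusp8, 0.96 for Dusp16, 1.18 for Jun and 0.67 for Bcl2l11, with adjusted p of at most 0.00531 by edgeR.

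The only call among the 50 genes after 6 h at 40 °C was the MAP3 kinase Map3k6, which fell by 0.61 (SE 0.07, adjusted p = 1.91e-05 by edgeR). With all 4 control libraries it was under a fold change of 1.5, at -0.56, while Bcl2l11 was called, at 0.62 (adjusted p = 0.00414). Map3k6 was also not called without 37 °C replicate C, 40 °C/6 h replicate B or 40 °C/6 h replicate D, and without 40 °C/6 h replicate B none of the 50 was. Mapk10, the third JNK gene, had a log2FC of -0.41 at 40 °C/6 h (SE 0.14, adjusted p = 0.0354) from between 5.63 and 8.91 CPM, which overlapped the controls at 8.50 to 10.5 CPM. In the p38 arm, which shares MAP2 kinases with JNK, 0 of 2 tested genes were called at 42.5 °C by edgeR and 0 by DESeq2, with 1 at an unadjusted p under 0.05. Of the 6 tested motor partners of the JIP scaffolds 0 were called at 42.5 °C by edgeR and 0 by DESeq2, with 3 at an unadjusted p under 0.05. Of all 10470 genes tested there, 786 were called by edgeR and 712 by DESeq2, with 5305 at an unadjusted p under 0.05. With so few genes in each set, nothing is read from these counts.

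**Figure D4:**
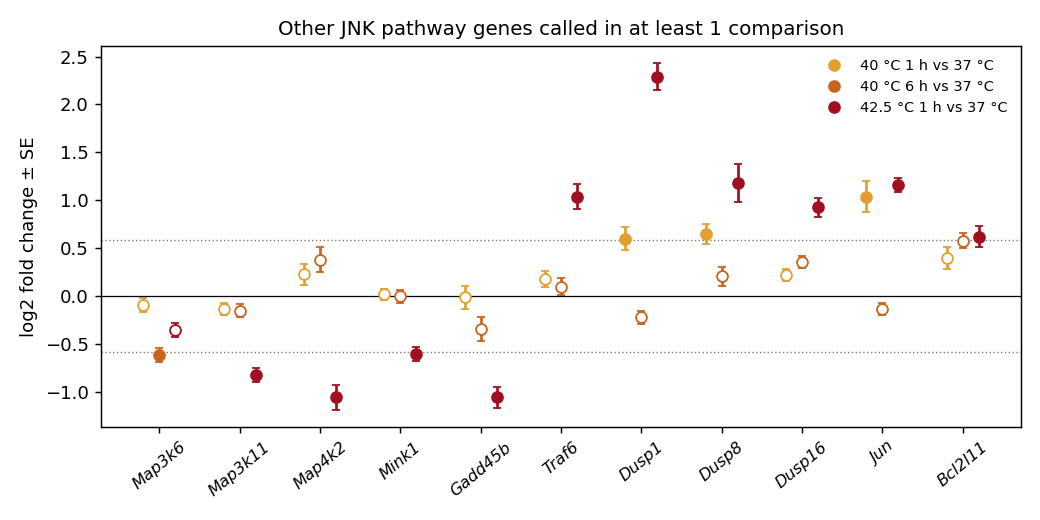
Log2 fold change ± SE (linear scale of log2 values) against 37 °C of the 11 other JNK pathway genes called in at least 1 comparison, for mild heat at both times and for 42.5 °C, from the fits with 3 controls. Filled points are called, open points are not, and dotted lines mark a fold change of 1.5. Genes are shown because they were called, so their directions do not stand for all tested genes of their kind. Of those shown, Map3k6, Map3k11, Map4k2, Mink1 and Gadd45b are below 0 at 42.5 °C. Traf6, Dusp1, Dusp8, Dusp16, Jun and Bcl2l11 are above it.

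Directly between temperatures at 1 h, 7 of the 50 genes were called, beside 5.27% of all genes, 3 higher and 4 lower at 42.5 °C than at 40 °C, with a median log2FC of -0.02 against 0.00 over all genes. Dusp1 (1.68, SE 0.15), Traf6 (0.86, SE 0.12) and Dusp16 (0.71, SE 0.10) were higher. Map4k2 (-1.28, SE 0.13), Gadd45b (-1.04, SE 0.12), Map3k11 (-0.69, SE 0.07) and Mink1 (-0.62, SE 0.07) were lower, and adjusted p of the 7 genes was at most 5.86e-05 by edgeR. Mink1 was not called without 40 °C/1 h replicate B, and neither Mink1 nor Dusp16 was without 42.5 °C replicate D. Jun did not pass the test between the temperatures, at 0.12 (SE 0.14, adjusted p = 0.533).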

How the data were processed

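Trimming, mapping to CHOK1GS_HDv1 (Chinese hamster) and counting per gene were done by the authors in CLC Genomics Workbench, and bcl2fastq is named in the submitters' processing notes. The deposited values are raw read counts, whole numbers without normalization. The annotation release, strand setting and handling of reads with several mapping places are not given in the sources used here.

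The quasi-likelihood test of edgeR (version 4.0.16, R 4.3.3) was used, fitted to only the 2 groups of each comparison, with filterByExpr, TMM and Benjamini-Hochberg adjustment over all genes tested. SEs come from the fitted quasi-likelihood model. CPM were scaled by TMM over 16 libraries, and the prior count for log2 CPM was 2. The control 37 °C replicate D, the one whose counts the study's own table lacks, was left out. The members and lists were chosen with earlier results of these data known. Named genes are the members, the pathway genes called in any comparison, and the 3 genes closest in pattern to Taok2 and to Mapk8ip3. Other genes are named for a stated reason, chosen after their values were seen. The test was checked on simulated data with known changes.

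Alternatives were DESeq2 1.42.0 (its size factors, and its Wald test), unfiltered genes, a minimum of 10 counts in every library, all 4 controls, a block for the replicate letter, a call by adjusted p only, and each library left out in turn. Sequences of the members were not used here.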

Additional observations from a re-analysis of the deposited data

Results flagged for a closer look

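Mapk8 gave 3 of the 3 libraries that stood far from their group, out of 32 sets of 4 libraries examined over 8 members, where about 1 set in 20 would be expected by Dixon's criterion alone at its 95% critical value for the gap over the range. They were 37 °C replicate D at 21.5 CPM against 35.4 to 37.4 in the other 3, 40 °C/1 h replicate D at 33.7 CPM against 35.9 to 36.3, and 40 °C/6 h replicate C at 25.7 CPM against 30.7 to 31.7. Mapk8 was also the only member that passed the test between times at 40 °C, with a log2 difference of -0.25 from 1 h to 6 h (adjusted p = 0.0234 by edgeR). Mapk9 lay close to it, at -0.17 (SE 0.06, adjusted p = 0.0602), and did not pass the test. Without replicate C of 40 °C/6 h the difference of Mapk8 was -0.18 (adjusted p = 0.0823), and its difference against 37 °C was -0.23 (adjusted p = 0.029).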

How the results depend on the processing

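In the 3 comparisons among 37 °C and 40 °C, 0 members were called under each alternative that kept the fold threshold. At adjusted p alone 2 members passed for 40 °C/6 h against 37 °C and 1 for 6 h against 1 h. Of the 50 pathway genes tested, 14 passed for 40 °C/6 h against 37 °C, beside 1540 higher and 1551 lower of all 10499 genes. For 42.5 °C against 37 °C 26 passed, beside 2180 higher and 2330 lower of all 10470 genes. For 6 h against 1 h 8 passed, beside 987 higher and 944 lower of all 10439 genes. For 42.5 °C against 40 °C/1 h 31 passed, and the number over all genes is not given here. Nothing is read from these counts. With all 4 controls 0 pathway genes were called at 40 °C/1 h. Leaving out 1 library gave 0 to 2 pathway genes at 40 °C/6 h, where 37 °C replicate B or 40 °C/6 h replicate A gave 2 and 40 °C/6 h replicate B gave 0. Same-letter correlations of deviations from the group means were weak (-0.045 to 0.18), and the main fits did not pair libraries by letter. They were highest for 40 °C/1 h against 37 °C, at 0.095 to 0.18 (mean 0.15), where other letters had a mean of -0.048. With the replicate block, 1 pathway gene was called at 40 °C/6 h, Map3k13 (higher) in place of Map3k6, and 9 at 42.5 °C, with Dusp10 called and Bcl2l11 and Mink1 not. In the other 3 comparisons the block called the genes of the fit without it, and Mapk9 from 1 h to 6 h had -0.18 (adjusted p = 0.0453).

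Signs turned only in comparisons in which the member did not pass the test, or was not tested, and the cause was not tested. For 40 °C/1 h against 37 °C with all 4 controls the log2 values were 0.08 for Taok2, 0.04 for Taok3, 0.03 for Mapk8ip1, 0.10 for Mapk8ip3, 0.03 for Map2k4 and 0.11 for Mapk8, and with the replicate block 0.01 for Taok2, 0.01 for Taok3 and 0.02 for Mapk8ip3. For 40 °C/6 h with all 4 controls they were 0.04 for Taok3 and 0.04 for Mapk8ip3. From 1 h to 6 h Taok3 had 0.00 without a filter and 0.00 with at least 10 counts. Leaving out 1 library gave, for 40 °C/1 h, Taok2 -0.06 to 0.01, Taok3 -0.06 to 0.01, Mapk8ip1 -0.06 to 0.04, Mapk8ip3 -0.10 to 0.03 and Map2k4 -0.09 to 0.02. It gave Taok3 -0.07 to 0.02 for 40 °C/6 h, and from 1 h to 6 h Taok1 -0.03 to 0.04, Taok3 -0.05 to 0.04 and Mapk8ip3 -0.14 to 0.01. At 42.5 °C, where members were not tested, Mapk8ip1 ran from -0.06 to 0.07 against 37 °C (-0.06 with the replicate block) and from -0.05 to 0.08 against 40 °C/1 h, and Mapk9 from -0.03 to 0.03 against 37 °C. Mapk8ip3 at 42.5 °C, with 99 to 153 counts in a library, had the fewest reads of the 8 measured members in that group.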
